A study of Mus musculus with 2 samples.

Results

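The genes described here are the 10 membrane-bound semaphorins and B- and C-class plexins of a list, chosen by symbol: Sema4a, Sema4b, Sema4c, Sema4d, Sema6a, Sema6d, Sema7a, Plxnb1, Plxnb2 and Plxnc1. They are 10 of 22620 genes counted in each of 2 droplet single-cell RNA sequencing libraries. The mice were C57BL/6J animals carrying tumours of EO771-HEVM3, a derivative of the mouse breast cancer line EO771 that was selected in mice for cells that spread from lymph nodes to the lung. One library held primary tumours and the other the paired lymph nodes, and each was a pool from 6 mice, so that there was 1 sample per group and no untreated control. The values are unique molecular identifiers (UMIs), each standing for 1 captured transcript. Cells cannot be assigned to mice. Every interval below is a 95% interval for counting error only, no p-value is given, and a ratio compares these 2 libraries and not the tissues in general. Tumours and lymph nodes were digested with different enzymes, so that digestion and tissue cannot be told apart.

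Semaphorins are a family of guidance proteins that share a Sema domain. Those of class 4 and class 6 span the cell membrane, and Sema7a, the single member of class 7, is held in the membrane by a glycosylphosphatidylinositol anchor. Plexins are their receptors, which signal through small GTPases inside the cell. Plxnb1 and Plxnb2 bind class 4 semaphorins, Plxnc1 binds Sema7a, and class 6 semaphorins bind class A plexins. In the immune system Sema4d, also known as CD100, binds Cd72 on B cells, and Sema7a also acts through integrins that hold Itgb1.

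In the GRCm38 assembly, by the GENCODE M21 annotation, all 10 are protein-coding genes. Sema4a (ENSMUSG00000028064) lies on chromosome 3 from 88435959 to 88461182, on the minus strand. Sema4b (ENSMUSG00000030539) lies on chromosome 7 from 80186841 to 80226527, on the plus strand. Sema4c (ENSMUSG00000026121) is found on chromosome 1 from 36548639 to 36558349, on the minus strand, and Sema4d (ENSMUSG00000021451) on chromosome 13 from 51685529 to 51793747, also on the minus strand. Sema6a (ENSMUSG00000019647) is on chromosome 18 from 47235598 to 47368870, minus strand, and Sema6d (ENSMUSG00000027200) on chromosome 2 from 124089969 to 124667770, plus strand. Sema7a (ENSMUSG00000038264) and Plxnb1 (ENSMUSG00000053646) are both on the plus strand of chromosome 9, from 57940112 to 57962865 and from 109095389 to 109119917. Plxnb2 (ENSMUSG00000036606) is on chromosome 15 from 89155549 to 89180788 and Plxnc1 (ENSMUSG00000074785) on chromosome 10 from 94790866 to 94944835, both on the minus strand. Counts cover each gene as a whole, so exons and isoforms were not told apart.

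After limits on detected genes, mitochondrial UMIs and doublets, 8756 of 12427 primary tumour cells and 9689 of 11617 lymph node cells were kept. The libraries differed in depth, with medians of 9161 UMIs per deposited cell for the primary tumour and 2630 for the lymph node. They shared 47 cell barcodes. Cells were clustered with all 10 genes and their partner genes left out, and 15 classes were named from marker genes. The names stand for classes rebuilt from markers, as in T-like or cancer-like cells, and the suffix is kept below only for the endothelial cells with Glycam1, Chst4 and Fut7, markers of high endothelial cells (HEC-like). The 22 groups of 1 class in 1 library with at least 20 cells are compared. Levels are in CPM, a gene's UMIs summed over a group and scaled by all UMIs of that group. All markers of its class were above 0 in each group, except for Cd209a in conventional dendritic cells and Cldn5, an endothelial junction gene, in HEC-like cells. Free RNA from cancer cells was followed by Krt8 and Krt18, the keratins of cancer cells. Beside cancer cells their summed level was 3.28% to 13.7% of the cancer cell level in the primary tumour classes and 0.501% to 3.68% in those of the lymph node, except for primary tumour neutrophils, at 48.5%. Fewer cells that carry a gene and less RNA per cell cannot be told apart in these sums.

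**Figure D1:**
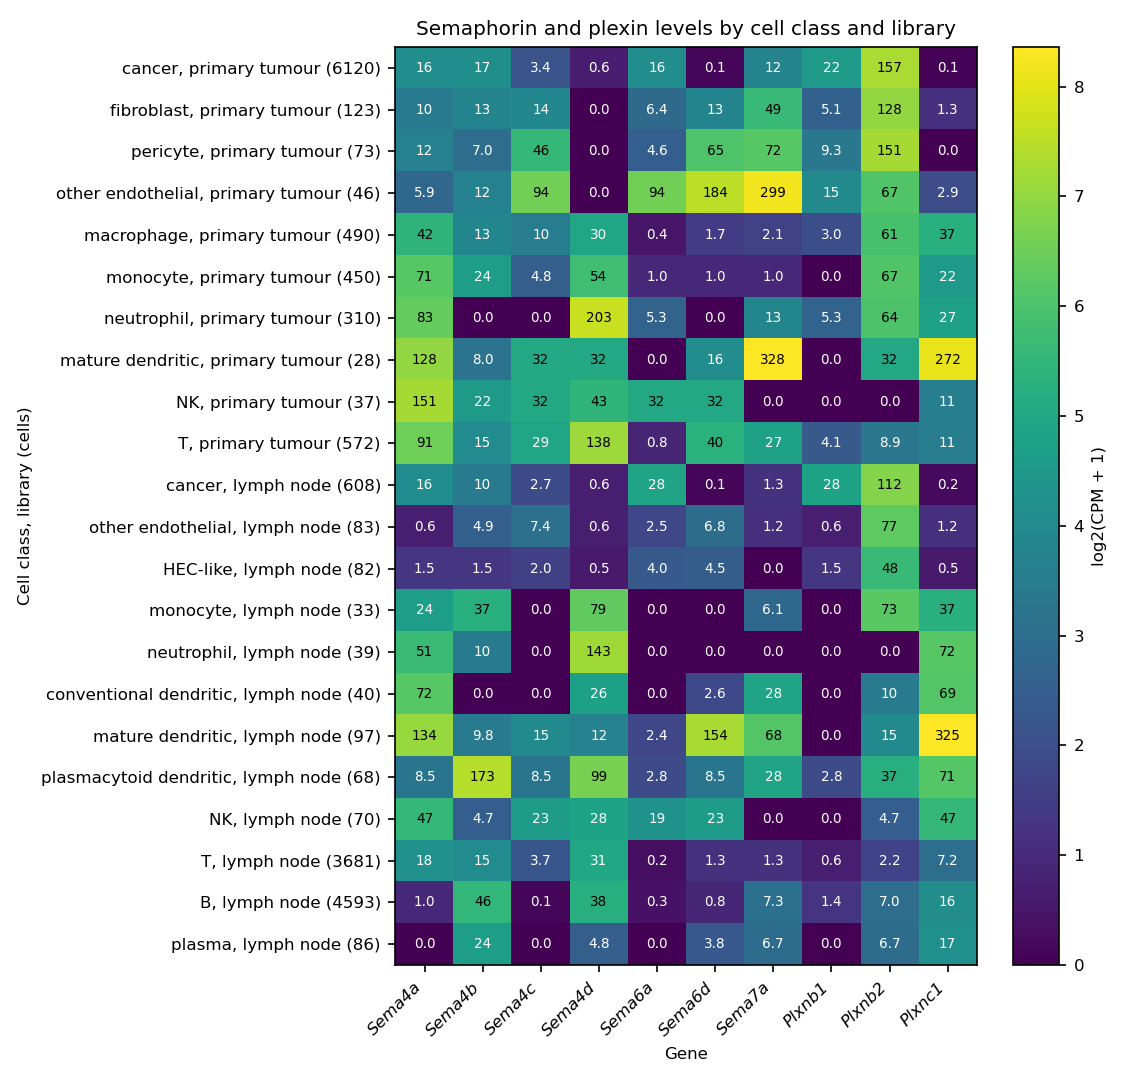
Level of each of the 10 genes (columns) in the 22 groups of 1 cell class and 1 library (rows, cell numbers in brackets). Colour is log2(CPM + 1) and the printed number is CPM. Plxnb2 reached 157 CPM in primary tumour cancer cells, Sema7a 328 CPM and Plxnc1 325 CPM in mature dendritic cells, and Sema4d 203 CPM in neutrophils.

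Which cells carried which ligand was asked first. The 7 semaphorins fell into distinct patterns over the 22 groups. Sema4d and Sema4a were spread over immune cells, Sema4b was highest in plasmacytoid dendritic cells, and Sema4c, Sema6a and Sema6d were highest in primary tumour endothelial cells. Sema7a was high in both primary tumour mature dendritic cells and primary tumour endothelial cells.

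Sema4d was a gene of blood cells here. Over the 22 groups its lowest, median and highest levels were 0, 28.9 and 203 CPM. Primary tumour neutrophils had 203 CPM [160 to 254] from 76 UMIs, lymph node neutrophils 143 CPM [78.4 to 241] and primary tumour T cells 138 CPM [118 to 161]. These 3 groups came first, and neighbours in this order overlapped in their intervals. Plasmacytoid dendritic cells of the lymph node had 99.4 CPM [69.3 to 138]. Lymph node B cells had 37.7 CPM [33.8 to 41.8] and lymph node T cells 30.9 CPM [27.9 to 34.1]. Cancer cells had 0.607 CPM [0.462 to 0.783] in the primary tumour and 0.637 CPM [0.339 to 1.09] in the lymph node. No Sema4d UMI was found in primary tumour fibroblasts, pericytes or endothelial cells, where a count of 0 allows up to 3.83, 6.96 and 8.78 CPM. Cells without a keratin UMI kept Sema4d, and in the 239 such neutrophils of the primary tumour its level was 317 CPM. With doublets kept the level in all primary tumour neutrophils was 127 CPM.

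Sema4a, a ligand that costimulates T cells, was found in T cells, NK cells, dendritic cells and myeloid cells. Plasma cells had no UMI. NK cells of the primary tumour were highest at 151 CPM [82.6 to 254], from only 14 UMIs in 37 cells. Mature dendritic cells, those with Ccr7 and Fscn1, had 134 CPM [101 to 175] in the lymph node and 128 CPM [73.1 to 208] in the primary tumour. Primary tumour T cells followed with 91.0 CPM [74.9 to 110]. These groups could not be ordered within their counting error. Cancer cells had 16.1 CPM [15.3 to 16.9] in the primary tumour and 15.7 CPM [14.0 to 17.5] in the lymph node. They still held 76.9% of the Sema4a UMIs in the kept cells of the primary tumour, being many and deeply sequenced. Lymph node B cells had 0.955 CPM [0.437 to 1.81].

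Sema4b had a clear first place. Plasmacytoid dendritic cells of the lymph node, which make type I interferon, had 173 CPM [133 to 223] from 61 UMIs in 68 cells. Lymph node B cells came next with 45.6 CPM [41.4 to 50.1], and the intervals of the first and second group did not overlap. After thinning each cell to 1000 UMIs, which takes away differences in depth, 16.0% [8.20 to 26.8] of plasmacytoid dendritic cells and 3.91% [3.37 to 4.52] of B cells had a Sema4b UMI, with 0 and 69 shallower cells left out. The shares before thinning were 48.5% at a median depth of 4700.5 UMIs and 7.86% at 1797 UMIs. Conventional dendritic cells of the lymph node had no Sema4b UMI, which allows up to 7.70 CPM. Cancer cells had 17.0 CPM [16.2 to 17.8] in the primary tumour and 10.0 CPM [8.72 to 11.5] in the lymph node.

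Sema4c, a class 4 ligand of Plxnb2, was low in most groups. Its highest level was 93.7 CPM [64.1 to 132] in primary tumour endothelial cells, followed by 46.4 CPM [28.4 to 71.7] in pericytes, the mural cells of vessels, with overlapping intervals. The median over the 22 groups was 6.11 CPM, and 5 groups had no UMI. In the primary tumour, NK cells had 32.4 CPM [6.68 to 94.7] from 3 UMIs and mature dendritic cells 32.0 CPM [8.71 to 81.8] from 4. Primary tumour T cells had 29.3 CPM [20.5 to 40.5]. The intervals of all these groups overlapped that of pericytes. Cancer cells stood at 3.40 CPM [3.04 to 3.78] in the primary tumour and at 2.75 CPM [2.07 to 3.56] in the lymph node.

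Sema6a was highest in endothelial cells of the primary tumour and was also found in NK and cancer cells. NK cells had 32.4 CPM [6.68 to 94.7] in the primary tumour, from 3 UMIs, and 18.7 CPM [5.11 to 48.0] in the lymph node, from 4. Endothelial cells had 93.7 CPM [64.1 to 132] from 32 UMIs, of which 1 cell held 6, and 144 CPM with doublets kept. Cancer cells had 28.5 CPM [26.2 to 30.9] in the lymph node and 16.2 CPM [15.4 to 17.0] in the primary tumour. They held 96.8% of the Sema6a UMIs of the 22 groups. Cancer cells were many and deeply sequenced, so that this share does not stand for level alone. In 5 groups Sema6a had no UMI, and in lymph node T cells it stood at 0.236 CPM [0.0487 to 0.690].

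Sema6d was nearly absent from cancer cells, at 0.103 CPM [0.0493 to 0.189] in the primary tumour and 0.0980 CPM [0.0119 to 0.354] in the lymph node. Endothelial cells of the primary tumour had 184 CPM [142 to 236] and mature dendritic cells of the lymph node 154 CPM [118 to 197]. Both rest on 63 UMIs. The intervals of these groups overlapped, and that of the second lay above pericytes, at 65.0 CPM [43.2 to 93.9]. Primary tumour T cells had 39.8 CPM [29.5 to 52.6]. At 1000 UMIs per cell, 16.9% [7.41 to 31.1] of the primary tumour endothelial cells had a Sema6d UMI, with 1 cell left out, against 54.3% without thinning at a median depth of 6104 UMIs. In primary tumour cancer cells the share was 0.0135% thinned and 0.163% unthinned, at a median depth of 14066 UMIs.

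Sema7a had 2 high groups in the primary tumour. Mature dendritic cells had 328 CPM [235 to 444] from 41 UMIs in 28 cells, and endothelial cells had 299 CPM [243 to 362] from 102 UMIs in 46 cells. Their intervals overlapped each other and lay above all other groups. Pericytes had 72.0 CPM [48.9 to 102], mature dendritic cells of the lymph node 68.3 CPM [45.4 to 98.7] and fibroblasts 48.5 CPM [34.3 to 66.6]. At 1000 UMIs per cell, 31.6% [18.6 to 47.2] of endothelial and 28.5% [13.2 to 48.6] of mature dendritic cells of the primary tumour had a Sema7a UMI. Before thinning, 84.8% of the endothelial cells had one, at a median of 6104 UMIs, and 60.7% of the mature dendritic cells, at 3626.5 UMIs. In all, 1 endothelial cell was too shallow to be thinned. Primary tumour monocytes, at a median of 2015.5 UMIs, had an unthinned share of 0.222%. HEC-like cells had no Sema7a UMI among 1984219, which allows up to 1.51 CPM.

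The receptors were examined in the same way. Plxnb1 was highest in cancer cells, Plxnb2 followed cancer cells and stroma, and Plxnc1 followed dendritic cells and was close to absent from cancer cells.

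Plxnb1 was highest in cancer cells, at 27.7 CPM [25.5 to 30.1] in the lymph node and 21.7 CPM [20.8 to 22.6] in the primary tumour. They held 98.1% of the Plxnb1 UMIs of the 22 groups, and 9 groups had none. Cancer cells were also many and deeply sequenced, so that the share does not stand for level alone. Outside them the highest level was 14.6 CPM [4.75 to 34.2] in primary tumour endothelial cells, which rests on 5 UMIs and overlaps the interval of the cancer cells in both libraries. Of the 20 groups other than cancer cells, 4 had an interval above the level that Krt8 and Krt18 give for free cancer cell RNA, namely the endothelial cells, pericytes and fibroblasts of the primary tumour and the B cells. After thinning, a Plxnb1 UMI was found in 2.82% [1.65 to 4.48] of cancer cells from the lymph node and 2.34% [1.97 to 2.75] of those from the primary tumour, with 3 and 81 cells left out. Without thinning it was found in 56.6%, at a median of 35079.5 UMIs, and in 26.3%, at 14066 UMIs.

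Plxnb2 had high levels in both cancer cells and stroma. Cancer cells of the primary tumour had 157 CPM [154 to 159] from 15227 UMIs, pericytes 151 CPM [116 to 192] and fibroblasts 128 CPM [104 to 155]. These could not be ordered within counting error. Cancer cells of the lymph node had 112 CPM [107 to 117]. Other endothelial cells of the lymph node had 77.1 CPM [64.1 to 91.8], those of the primary tumour 67.3 CPM [42.7 to 101] and HEC-like cells 48.4 CPM [39.2 to 59.1]. Macrophages and monocytes of the primary tumour had 60.5 CPM [51.0 to 71.4] and 66.5 CPM [51.8 to 84.2]. In primary tumour neutrophils the 64.0 CPM [41.0 to 95.2] was not above the 75.9 CPM that their keratin UMIs would bring with them as free cancer cell RNA. The same held for primary tumour T cells, with 8.94 CPM [4.46 to 16.0] against 11.7 CPM. In lymph node T cells the interval of the 2.20 CPM [1.46 to 3.19] also reached the 1.47 CPM so computed. In all, Plxnb2 was above this level in 13 of the 20 groups other than cancer cells. In these 3 groups it was thus not told apart from free cancer cell RNA, whose part was not tested, and they are kept in the comparisons between libraries.

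Plxnc1 was highest in mature dendritic cells of both libraries, at 325 CPM [272 to 385] in the lymph node and 272 CPM [188 to 380] in the primary tumour. The next groups were well below, with 71.7 CPM [28.8 to 148] in lymph node neutrophils, 71.0 CPM [46.0 to 105] in plasmacytoid and 69.3 CPM [45.7 to 101] in conventional dendritic cells. Macrophages of the primary tumour had 36.9 CPM [29.5 to 45.6] and held 86 of the 191 Plxnc1 UMIs of that library's kept cells. Cancer cells had 9 UMIs in all, at 0.0514 CPM [0.0167 to 0.120] in the primary tumour and 0.196 CPM [0.0534 to 0.502] in the lymph node. At 1000 UMIs per cell, 24.2% [15.6 to 34.6] of lymph node and 22.2% [8.78 to 41.8] of primary tumour mature dendritic cells had a Plxnc1 UMI, with 11 and 0 cells left out. Before thinning one was found in 57.7% and 53.6% of them, at medians of 4188 and 3626.5 UMIs, and in 0.0817% of cancer cells from the primary tumour.

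The second question was whether a gene differed between the libraries within the same class of cells. In all, 7 classes had at least 20 cells in each library. A gene with at least 20 UMIs in a class was counted as higher or lower when its ratio was at least 2-fold and its counting interval left out no change. Of 34 such comparisons of the 10 genes, 16 passed. Over all genes compared, the share lower in the lymph node ran from 8.30% in NK cells to 26.1% in T cells, and the share higher there from 4.87% in T cells to 17.6% in endothelial cells. Centring the ratios on the median of all genes in a class left the number that passed as it was in all 7 classes.

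**Figure D2:**
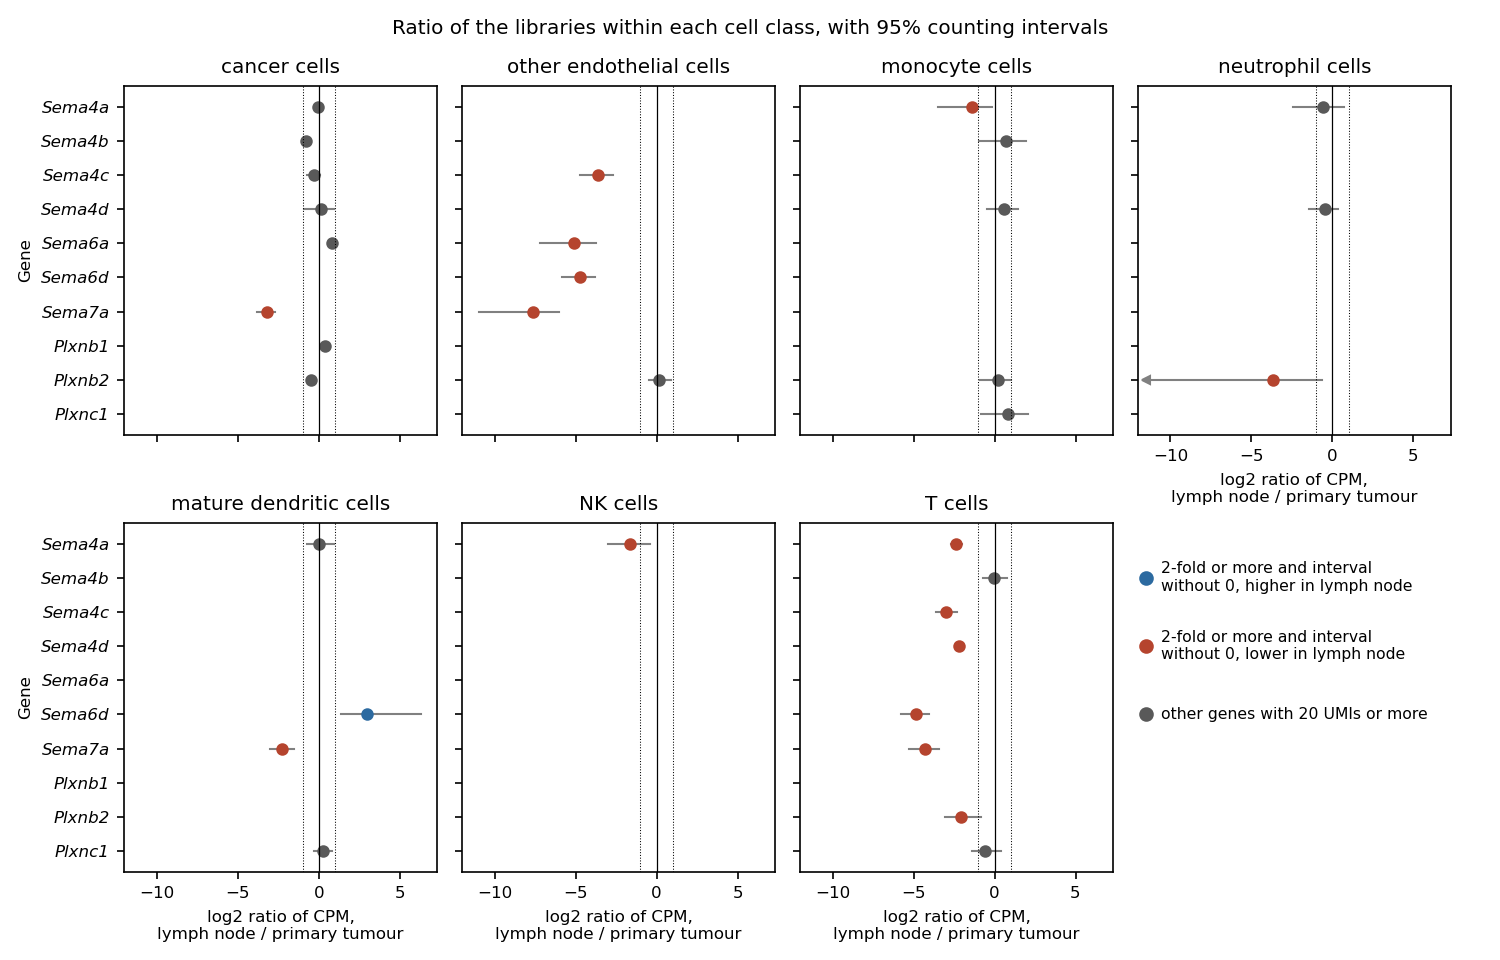
Lymph node level divided by primary tumour level, as log2, for each gene with at least 20 UMIs in a class. Lines are 95% counting intervals, an arrow marks an open interval, and dotted lines mark 2-fold. Of the 34 ratios shown, 15 of the coloured points lie to the left and 1, Sema6d in mature dendritic cells, to the right.

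In cancer cells Sema7a alone was lower in the lymph node among the 8 genes that could be compared, and none was higher. Over all 12538 genes compared in cancer cells, 9.70% were lower and 8.55% higher, and the median log2 ratio was -0.15 against -0.17 for the 8 genes. Sema7a was at 12.4 CPM in the primary tumour and 1.32 CPM in the lymph node, a log2 ratio of -3.20 [-3.83 to -2.68] from 1203 and 27 UMIs. Sema6a and Plxnb1 were on the other side of 0, with log2 ratios of 0.81 [0.67 to 0.95] and 0.36 [0.22 to 0.49]. Plxnb2 had -0.49 [-0.55 to -0.42] and Sema4b -0.76 [-0.98 to -0.55], and Sema4a had -0.04 [-0.21 to 0.14]. None of these was as large as 2-fold. The limit of 6000 detected genes left out 971 lymph node cells, 907 of them with a keratin UMI, and 874 primary tumour cells, 873 with one. For the lymph node, only 28.9% of the deposited UMIs of Plxnb1 and of Plxnb2 and 35.5% of those of Sema6a were in kept cells. The cells left out by the limit on detected genes had no class in the main setting. A keratin UMI alone does not make a cell a cancer cell. Over all the cells left out by this limit, Sema7a was at 0.299 CPM in the lymph node and 4.12 CPM in the primary tumour.

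The cancer cell clusters showed where Sema7a lay. In the primary tumour it was at 32.5 CPM [29.8 to 35.4] in cluster 5 and 32.7 CPM [28.8 to 36.9] in cluster 11, both led by Tff1, a trefoil peptide of secretory epithelium. It was at 11.8 CPM [10.5 to 13.2] in cluster 3 and 2.02 CPM [1.58 to 2.55] in cluster 0, which was led by genes that include the Wnt target Axin2 and Cenpf. In the lymph node 511 of 608 cancer cells were in cluster 24, which held 1 primary tumour cell and only 4 Sema7a UMIs, while 19 of the 27 Sema7a UMIs were in the 53 cells of cluster 5. The clusters that hold most cancer cells thus differ between the libraries. Within cluster 5, which both libraries share, Sema7a was at 15.7 CPM in the lymph node and 32.5 CPM in the primary tumour, with a log2 ratio of -1.02 [-1.80 to -0.40].

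Plxnb1 and Sema6a were also highest in cluster 5. In the primary tumour Plxnb1 ranged from 12.5 CPM [9.82 to 15.6] in cluster 1 to 39.9 CPM [36.9 to 43.1] in cluster 5, and Sema6a from 4.43 CPM [2.92 to 6.45] to 34.7 CPM [31.9 to 37.7] in the same clusters. In the lymph node cells of cluster 5 they were at 38.8 CPM [28.5 to 51.5] and 42.9 CPM [32.0 to 56.2]. Sema4a was highest in cluster 1 of the primary tumour, with 33.0 CPM [28.6 to 37.9] against 12.4 CPM [11.1 to 13.8] in cluster 3 and 8.26 CPM [6.36 to 10.5] in cluster 11. Within cluster 5 the log2 ratio of lymph node over primary tumour was 0.32 [-0.13 to 0.72] for Sema6a and -0.03 [-0.50 to 0.39] for Plxnb1, so that neither difference between all cancer cells was detectable there. Plxnb2 had -0.75 [-1.02 to -0.50] within cluster 5, Sema4b -1.07, with an upper bound of -0.36, and Sema4c, with 1 UMI from the lymph node, -2.04 [-7.94 to -0.10]. Sema4b and Sema4c were thus past 2-fold within this cluster, and not over all cancer cells. How many of all genes were lower within it was not computed, and the contrast with all cancer cells was not tested.

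**Figure D3:**
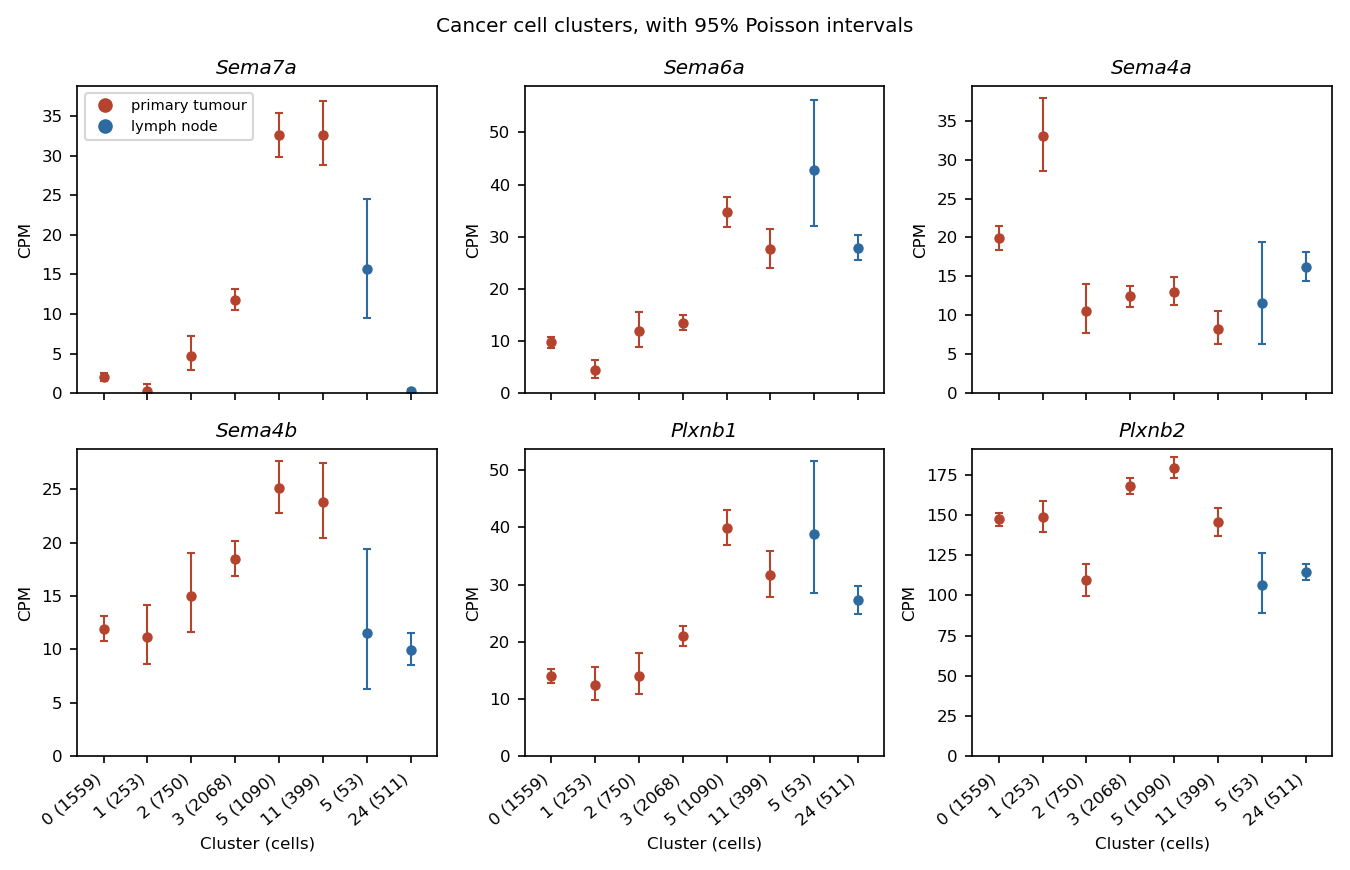
Level in CPM of 6 genes in the cancer cell clusters with at least 20 cells in a library, with 95% Poisson intervals and cell numbers in brackets. Sema7a is at 32.5 and 32.7 CPM in primary tumour clusters 5 and 11 and at 0.219 CPM in lymph node cluster 24, where Plxnb1 is at 27.3 CPM and Sema6a at 27.9 CPM.

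In T cells 6 of the 8 genes compared were lower in the lymph node and none was higher. The share of all 10273 genes compared that was lower there was 26.1%, with 4.87% higher, so lower levels in lymph node T cells were common. The median log2 ratio was -0.47 over all genes and -2.27 over the 8. Sema4d was at 138 CPM in the primary tumour and 30.9 CPM in the lymph node, a log2 ratio of -2.16 [-2.43 to -1.89]. Thinned to 1000 UMIs, 12.9% [9.92 to 16.4] of the tumour T cells had a Sema4d UMI, against 2.98% [2.45 to 3.58] of lymph node T cells, with 129 and 23 cells left out. The thinned share in primary tumour cancer cells was 0.0600%. Before thinning the shares were 23.3% of tumour T cells, at a median of 1559 UMIs, 9.78% of lymph node T cells, at 2990 UMIs, and 0.948% of these cancer cells, at 14066 UMIs. The difference was thus seen also at equal depth. Sema4a, at 91.0 and 17.6 CPM, had -2.38 [-2.71 to -2.03]. Sema6d, at 39.8 and 1.34 CPM, had -4.87 [-5.78 to -4.07]. Sema7a had -4.30 [-5.26 to -3.44] and Sema4c -2.99 [-3.64 to -2.31]. Plxnb2 also passed, with -2.06 [-3.07 to -0.87], but did not in cells without a keratin UMI, where its log2 ratio was -1.05. Sema4b was at 15.4 CPM in the primary tumour and 15.3 CPM in the lymph node.

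The T cells of the libraries were not the same kinds of cells. In the primary tumour 500 of 572 were in cluster 4, led by Cxcr6, Cd8a and Pdcd1, the last an inhibitory receptor of activated T cells. In the lymph node 1286 and 1654 of 3681 were in clusters 21 and 22, led by genes that include Lef1, a transcription factor of naive T cells. All 49 Sema6d UMIs of primary tumour T cells were in cluster 4, at 45.6 CPM [33.8 to 60.3]. The 30 lymph node cells of cluster 4 had 55.3 CPM [18.0 to 129] of Sema6d from 5 UMIs, against 0 UMIs in cluster 21 and 4 in cluster 22. Within cluster 4 the log2 ratios were 0.40 [-1.41 to 1.60] for Sema6d, -0.28 [-1.73 to 0.71] for Sema4a and -0.76 [-2.19 to 0.23] for Sema4d. Sema4c and Sema7a had no UMI in these 30 cells, which allows up to 33.2 CPM, against 30.7 and 28.9 CPM in the primary tumour cells, so that no ratio is given. With 30 cells these intervals are wide, and a difference was not detectable at this depth.

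Cluster 12, led by genes that include Foxp3 and Ctla4 of regulatory T cells, had cells of both libraries. Its Sema4d level was 142 CPM [84.0 to 224] in 50 primary tumour cells and 45.2 CPM [36.8 to 55.0] in 479 lymph node cells, a log2 ratio of -1.68 [-2.38 to -0.84]. Sema4b was highest among T cell clusters here, at 63.0 CPM [27.2 to 124] and 47.0 CPM [38.4 to 57.0], against 10.2 CPM [5.11 to 18.3] in primary tumour cluster 4 and 9.23 CPM [7.03 to 11.9] in lymph node cluster 22. The log2 ratio of Sema4b within cluster 12 was -0.50 [-1.45 to 0.83], so that a difference was not detectable for it. Sema4d was lower in the lymph node cells of the same cluster, where the share over all genes was not computed. The ratios of these genes had overlapping intervals and were not tested against each other.

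**Figure D4:**
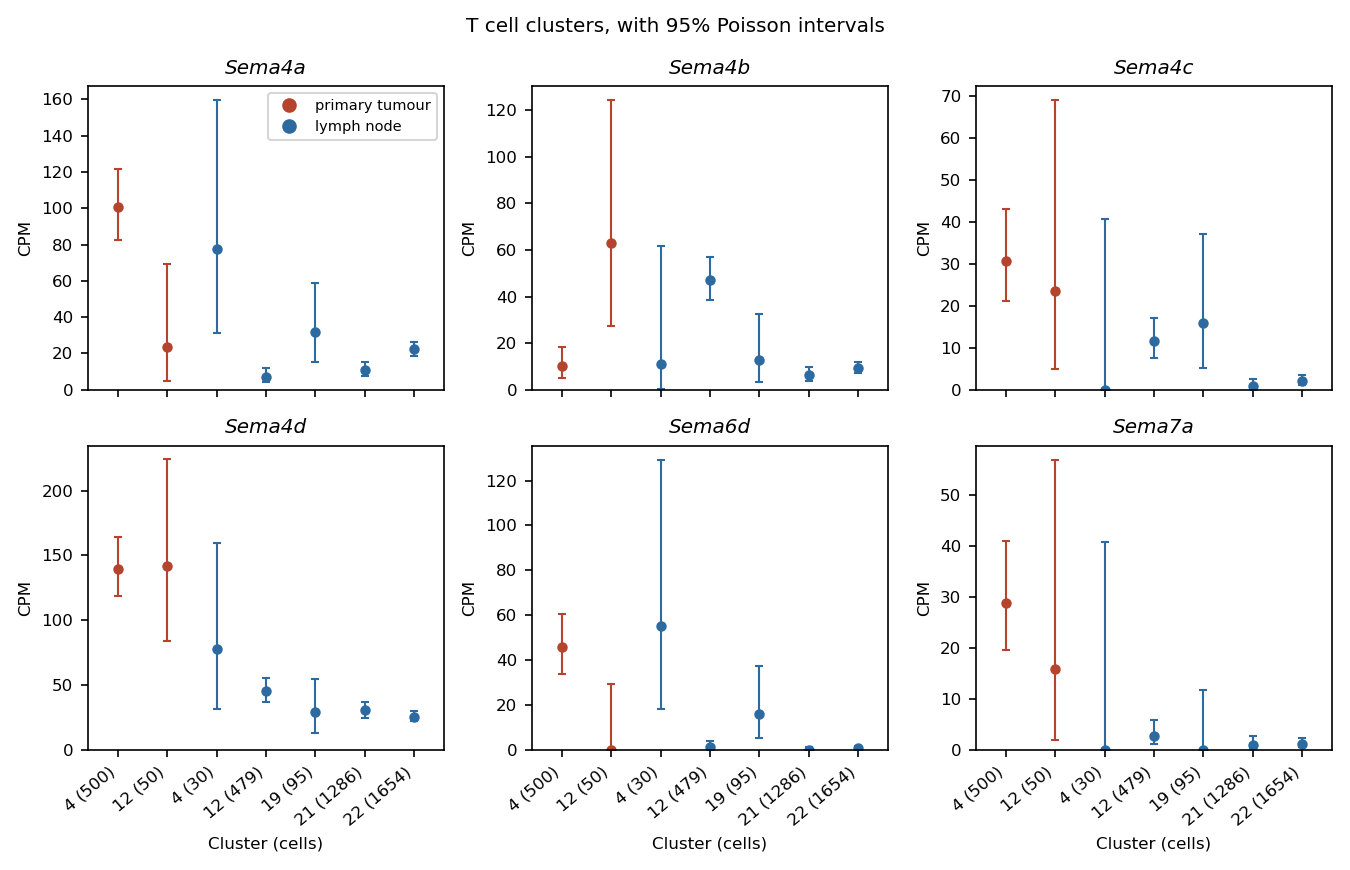
Level in CPM of 6 semaphorins in T cell clusters, with 95% Poisson intervals and cell numbers in brackets. Sema4d is at 140 and 142 CPM in the primary tumour cells of clusters 4 and 12, and Sema6d stands above 30 CPM only in cluster 4, in both libraries.

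In endothelial cells outside the HEC-like group, 4 of the 5 genes compared were lower in the lymph node and none was higher. All 4 were semaphorins. The study also sorted lymph node blood vessel endothelial cells for single-cell sequencing, while the labels of this library name no sort, and whether it holds sorted cells was not settled. Among the 7884 genes compared, 23.4% were lower and 17.6% higher, and the median log2 ratio was -0.06, against -4.71 for the 5 genes. Sema7a, at 299 CPM in the primary tumour and 1.23 CPM from 2 UMIs in the lymph node, had -7.61 [-10.98 to -6.03]. Sema6a had -5.10 [-7.21 to -3.75], which no longer passed in cells without a keratin UMI, at -4.37. Sema6d had -4.71 [-5.84 to -3.83] and Sema4c -3.63 [-4.75 to -2.67]. The size of these ratios depended on the processing. That of Sema7a went from -10.10 with no upper limit on detected genes to -5.80 as a mean over single cells, and that of Sema6a from -7.24 with doublets kept to -3.29 as a mean over single cells. Plxnb2 was at 67.3 and 77.1 CPM, with 0.17 [-0.45 to 0.90]. HEC-like cells, which had no primary tumour group to be compared with, had 4.03 CPM of Sema6a [1.74 to 7.94], 4.54 CPM of Sema6d [2.07 to 8.61] and 2.02 CPM of Sema4c [0.549 to 5.16].

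These cells differed in more than the semaphorins. The 8 endothelial markers summed to 5454 CPM in the primary tumour, 1744 CPM in the other lymph node endothelial cells and 865 CPM in HEC-like cells. Pecam1 was at 1057, 175 and 119 CPM in these groups and Cldn5 at 588, 21.6 and 0 CPM, while Egfl7 was at 679, 957 and 353 CPM. In the primary tumour 43 of the 46 cells were in subcluster E0, led by Igfbp3 and Fabp4. In the lymph node 36 were in E3, 20 in E5 and 22 in E7. The lymph node clusters E5 and E7 were deep, with median depths of 30308 and 35085.5 UMIs, and were led by genes that include Apln, Bmp4 and Hmga2. The keratin level of primary tumour endothelial cells was 13.7% of that of cancer cells, which as free RNA would bring 1.69 CPM of Sema7a and 2.22 CPM of Sema6a. The part of these differences in the ratios was not tested.

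**Figure D5:**
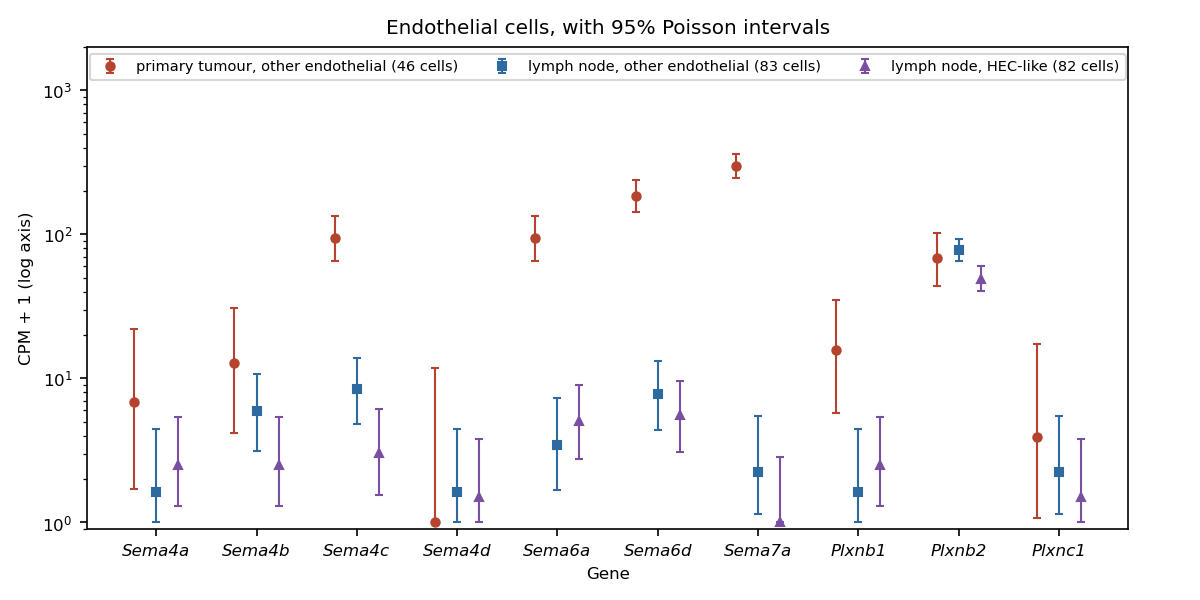
Level of the 10 genes in the 3 endothelial groups as CPM + 1 on a log axis, with 95% Poisson intervals. Sema4c, Sema6a, Sema6d and Sema7a of the primary tumour lie above both lymph node groups, and Plxnb2 lies between 48.4 and 77.1 CPM in all 3.

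In mature dendritic cells 1 of the 4 genes compared was higher and 1 lower in the lymph node, against 6.14% and 10.3% of 3158 genes. Sema6d was at 154 CPM in the lymph node and 16.0 CPM, from 2 UMIs, in the primary tumour, a log2 ratio of 2.96 [1.35 to 6.34]. Sema7a was at 68.3 and 328 CPM, with -2.25 [-3.01 to -1.53]. Plxnc1 had 0.24 [-0.30 to 0.84] and Sema4a 0.04 [-0.75 to 0.97]. The median log2 ratio was 0.14 over the 4 genes and -0.16 over all genes. Most of these cells were in cluster 6.2 in the lymph node, with 70 of 97 cells, and in cluster 6.1 in the primary tumour, with 22 of 28. Cluster 6.1 was led by Ccl22 and Ccl17, chemokines of mature dendritic cells, and cluster 6.2 by genes that include H2-M2 and Il4i1. Sema6d was at 162 CPM [124 to 209] in cluster 6.2 of the lymph node.

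Few genes reached 20 UMIs in the other 3 classes. Monocytes of the libraries were mostly in different clusters, with 346 of 450 from the primary tumour in cluster 10.0 and 30 of 33 from the lymph node in cluster 10.1. In monocytes Sema4a was lower in the lymph node, at 24.4 CPM from 4 UMIs against 71.4 CPM, with a log2 ratio of -1.39 [-3.46 to -0.13]. Without the upper limit on detected genes the ratio was -1.23 and did not pass. The other 4 genes compared did not pass, beside 8.74% of 5346 genes lower and 10.1% higher. Within cluster 10.1, led by Chil3 and Vcan, Sema4a had -2.07 [-4.19 to -0.70]. In NK cells Sema4a, the 1 gene with 20 UMIs, was lower as well, with -1.67 [-3.02 to -0.41] from 10 and 14 UMIs, beside 8.30% of 2253 genes lower and 6.79% higher. NK cells of the libraries were mostly in different clusters, with 65 of 70 from the lymph node in the cluster led by Xcl1 and Ifng and 22 of 37 from the primary tumour in cluster 20.1, led by Gzma and Gzmb. Sema4a did not pass in cells without a keratin UMI, at -2.16, or without the cell with most UMIs in each library, at -1.66. Both ratios were still past 2-fold, with fewer UMIs. In neutrophils 1 of 3 genes, Plxnb2, was lower, beside 19.2% of 2787 genes lower and 9.29% higher. Its 24 UMIs were all from the primary tumour, and the 0 of the lymph node allows up to 30.7 CPM, so its level was at least 2.08-fold higher in the primary tumour, before the counting error of the 24 UMIs. With that error the log2 ratio was at most -0.65. In the primary tumour Plxnb2 was no higher than the keratin background given above. It did not pass in cells without a keratin UMI, at a log2 ratio of -2.29, with no upper limit on detected genes, at -2.95, or without the cell with most UMIs, at -3.35. The ratio stayed past 2-fold in each, with fewer UMIs. The median log2 ratios of the genes compared were 0.60 in monocytes and -0.58 in neutrophils, against 0.14 and -0.28 over all genes.

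The ligands and receptors were then set side by side. Levels of different genes are not compared here, since capture differs between transcripts. For Sema4d, the receptor Plxnb2 was at 157 CPM in primary tumour cancer cells, which had almost no Sema4d, while primary tumour T cells and neutrophils, with 138 and 203 CPM of Sema4d, had Plxnb2 at a level that was not above that of free cancer cell RNA. Other groups had both above that level. Sema4d and Plxnb2 were at 54.0 and 66.5 CPM in monocytes and 29.6 and 60.5 CPM in macrophages of the primary tumour. In the lymph node they were at 79.3 and 73.2 CPM in monocytes and 99.4 and 36.9 CPM in plasmacytoid dendritic cells. In B cells, Sema4d at 37.7 CPM stood beside its receptor Cd72 at 172 CPM [164 to 181]. For Sema4a, the highest level of its receptor Plxnd1, 413 CPM [347 to 487], was that of primary tumour endothelial cells, a group with 5.85 CPM of Sema4a [0.709 to 21.1].

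Sema7a and Plxnc1 stood together in mature dendritic cells of both libraries. In primary tumour endothelial cells Sema7a was at 299 CPM and Plxnc1 at 2.93 CPM [0.0741 to 16.3], while its integrin partner Itgb1 was at 987 CPM [884 to 1098]. Sema4c and Plxnb2 were both present in pericytes, at 46.4 and 151 CPM. For Sema6a, the receptor Plxna2 was at 164 CPM [124 to 213] in primary tumour endothelial cells, where Sema6a was also highest, and Plxna4 at 11.7 CPM [3.19 to 30.0]. Plxna1, a receptor of Sema6d, was highest in primary tumour macrophages, at 60.1 CPM [50.6 to 70.9], where Sema6d was at 1.72 CPM [0.468 to 4.40].

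Other genes of the pathway were read from a list of 32 class 4 to 6 semaphorins, plexins, coreceptors and signalling proteins. In cancer cells 27 had 20 UMIs, of which 5 were higher and 4 lower in the lymph node, with a median log2 ratio of -0.14. Over all genes 8.55% were higher and 9.70% lower. Among the 9 the neuropilin Nrp2 had -1.16 [-1.27 to -1.06], Plxna2 -1.13 [-1.46 to -0.83] and the membrane protease Mmp14, which can cleave Sema4d, -1.03 [-1.12 to -0.94]. Gipc1, an adaptor protein of plexins, had 1.30 [1.19 to 1.41] and Dpysl2, a collapsin response mediator, 1.28 [1.13 to 1.42]. In T cells 20 were compared, with 1 higher and 9 lower and a median of -0.93, beside 4.87% higher and 26.1% lower over all genes. Itga1, the integrin alpha 1 chain, had the lowest ratio, -7.07 [-8.40 to -6.12]. In endothelial cells 19 were compared, with 2 higher and 11 lower and a median of -1.58, beside 17.6% higher and 23.4% lower over all genes. There Nrp1 had -4.95 [-5.92 to -4.18], Plxnd1 -3.23 [-3.67 to -2.82], Itgb1 -2.51 [-2.75 to -2.28] and Plxna2 -2.22 [-2.78 to -1.66]. In monocytes 1 was higher and 3 lower of 15, in neutrophils 1 and 1 of 4, in mature dendritic cells 1 and 0 of 7, and in NK cells none of 3. The shares over all genes in these 4 classes are those given above.

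Clusters of the other classes varied as well. Among macrophages, cluster 14, led by Mmp12 and Lpl, had 57.3 CPM of Sema4a [44.4 to 72.8] and 42.8 CPM of Sema4d [31.8 to 56.4]. Cluster 10.2, led by Ccl8 and C1qa, had 26.7 CPM [18.2 to 37.9] and 16.4 CPM [9.86 to 25.6] of the same genes but more Plxnb2, at 81.0 CPM [65.5 to 99.2] against 40.2 CPM [29.5 to 53.5]. The intervals of the clusters did not overlap for any of the 3 genes. Among B cells, cluster 23.2, led by Rgs13, a gene of germinal centre B cells, had 57.6 CPM of Plxnb2 [37.9 to 83.7] against 4.24 CPM [2.72 to 6.31] in cluster 16 and 4.37 CPM [2.39 to 7.34] in cluster 18. It also had 34.1 CPM of Sema7a [19.5 to 55.4], while cluster 16 had 4.24 CPM [2.72 to 6.31] and cluster 18 8.75 CPM [5.81 to 12.6]. Its 27 Plxnb2 UMIs were 27 of the 66 in all lymph node B cells, from 66 of 4593 cells.

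The genes whose levels were most like each of the 10 were sought among 11480 others over the 22 groups, as log2(CPM + 1). These correlations describe 22 groups from 2 libraries, which share depth and background, and carry no p-value. Sema4d was most like Sorl1, with Pearson's r of 0.96 and Spearman's rho of 0.96, then Il10ra and Vav1. Sema4a was most like Id2 (r = 0.92, rho = 0.91), then Efhd2 and Nfil3. Plxnb1 was most like Klhl23 (r = 0.93, rho = 0.94), then Il34 and Upk3bl, and Plxnb2 most like Tmem205 (r = 0.92, rho = 0.89), then 2310022B05Rik. Plxnc1 was most like Myo1g (r = 0.93, rho = 0.84), then Mthfs and Samsn1, and Sema6a most like Itga2 (r = 0.86, rho = 0.82), then Tnks1bp1 and Nol4l. Sema4c and Sema6d were each other's closest gene (r = 0.83, rho = 0.85). H2-T22 came second for both, followed by Tmem181a for Sema4c and Lrrc8c for Sema6d. Sema7a (Tspan2, r = 0.80, rho = 0.77, then Tmem39a and Chst15) and Sema4b (Med16, r = 0.73, rho = 0.50, then Zfp592 and Ubxn8) had looser matches.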

How the data were processed

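The values used are the UMI counts of each gene in each cell barcode, as the authors deposited them from Cell Ranger, with no normalization. The file headers give version 5.0.0 and the submitters' processing notes 2.1.1, with the genome GRCm38. Cells with over 200 and at most 6000 genes and at most 5% mitochondrial UMIs were kept, as in the study methods. Scrublet (scanpy 1.11.5) marked 391 primary tumour doublets, and in the lymph node, where its threshold failed, the 616 cells with the highest scores, past percentile 94, were taken out. Both libraries were clustered together (30 components, 15 neighbours, Leiden resolution 1.0, igraph 0.11.9) after regressing out cell cycle scores (gene lists of Seurat 5.3.0). Clusters needed at least 3 raised markers for a name. In all, 487 primary tumour and 194 lymph node cells stayed unnamed.

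Counts were summed per class and library. Intervals were exact Poisson for levels, exact Clopper-Pearson for shares, and exact for the split of 2 counts for ratios, to which 0.5 counts were added. A count of 0 was given a limit of 3 counts. Named genes were the 10 genes, partner or called genes of the pathway list, and for each of the 10 the 3 genes most like it among those with 200 UMIs. For Plxnb2 the gene ranked 3 is not reported here. The statistics were tested on simulated data. The members, lists and tests were chosen with earlier results of these data known, and the naming rule after the data were seen. Alternatives covered cell limits, doublets, clustering, scaling, single cells, keratin-free cells, UMI minimum and thinning.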

Additional observations from a re-analysis of the deposited data

Results flagged for a closer look

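Sema6d went in opposite directions between the libraries in different classes. Its log2 ratio of lymph node over primary tumour was 2.96 in mature dendritic cells, -4.87 in T cells and -4.71 in endothelial cells. With 1 library per group the difference between these ratios was not tested, and the primary tumour mature dendritic cells had 2 Sema6d UMIs.

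Clusters that were left without a name, and so stood outside the comparisons, also carried the genes. Cluster 6.3, led by Cd209a, had 135 CPM of Sema7a and 119 CPM of Sema4a in the primary tumour and 84.2 CPM of Plxnc1 in the lymph node. Cluster 10.3 of the primary tumour, led by genes that include Ace and Treml4, had 135 CPM of Sema4d. Cluster 9.2 of the primary tumour, led by genes that include Acta2 and Tagln but left unnamed because it also held cancer cell markers, had 112 CPM of Plxnb2, 21.4 CPM of Sema6d, 16.8 CPM of Plxnb1 and 9.17 CPM of Sema4c. Cluster 23.0 of the lymph node, led by immunoglobulin genes, had 32.9 CPM of Sema4b. Each was above the limit that a count of 0 allows.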

How the results depend on the processing

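Of the 16 ratios past 2-fold, 11 passed under all alternatives run other than the higher UMI minimum, and none of the 16 changed sign. Those lost under at least 1 of these alternatives were Plxnb2 in T cells and neutrophils, Sema4a in NK cells and monocytes, and Sema6a in endothelial cells (log2 ratio -4.37 in cells without a keratin UMI, with too few UMIs left to be counted). With at least 100 UMIs instead of 20, most of the 16 were no longer compared: the number of genes past 2-fold was 1 in cancer cells, 2 in T cells, 1 in endothelial cells and 0 in NK cells, mature dendritic cells, monocytes and neutrophils. Sema4d in neutrophils passed only in cells without a keratin UMI, at a log2 ratio of -1.07. With no upper limit on detected genes the number was 0 in monocytes and neutrophils. The level of Plxnb2 in primary tumour cancer cells became 147 CPM without that limit and 163 CPM as a mean over single cells. Sema4d in primary tumour neutrophils became 317 CPM in cells without a keratin UMI, 127 CPM with doublets kept, 311 CPM as a mean over single cells and 278 CPM with no upper limit on detected genes. In primary tumour endothelial cells, keeping doublets gave 139 CPM of Sema4c, 144 CPM of Sema6a and 248 CPM of Sema6d, and cells without a keratin UMI gave 238 CPM of Sema6d. The cause of these shifts was not tested. The other 88 levels under an alternative stayed within the counting interval. No paired analysis was possible because each group is 1 pooled library.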
